A study of Mus musculus with 7 samples.

Results

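The Kruppel-like factors described here are 8 genes, Klf2, Klf4, Klf6, Klf7, Klf9, Klf10, Klf13 and Klf15. They were chosen by gene symbol, as factors of the family that are induced by cell activity or by glucocorticoids, from a count table of 55367 genes. All 8 were in the table, and all 8 passed the filter on low counts, with between 151 and 22416 counts per member and library. The table covers 7 bulk RNA-seq libraries of brain from C57BL/6J mice labelled P90, 3 labelled noCRS and 4 labelled CRS. The label CRS is not spelled out in the sources used here, while the title of the series speaks of chronic stress. Total RNA was taken, per the labels, from mPFC-LHB projection neurons, cells of the prefrontal cortex whose axons reach the lateral habenula. The labels name no transgene, virus or sorting step, and do not say whether animals were pooled or whether each library is a separate animal. The p-values therefore measure only the spread between these libraries, which may be technical.

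Kruppel-like factors are transcription factors that share 3 zinc fingers at the end of the protein and bind GC-rich and CACCC-type DNA elements, which Sp proteins also bind. Outside the fingers they diverge, so that some members recruit coactivators and others corepressors such as CtBP or Sin3. In neurons several of them are known for the control of axon growth, in which Klf6 and Klf7 promote and Klf4 and Klf9 restrain growth. Klf9, Klf13 and Klf15 are known targets of the glucocorticoid receptor, Klf4 and Klf10 belong to the genes that cells induce early after stimulation, and Klf2 and Klf4 are abundant in the endothelium of blood vessels.

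The libraries held 28677703 to 39965667 counts. The tissue label was checked against markers: the summed level of 10 excitatory neuron markers was 133 to 270.4 CPM (counts scaled to a common library size) in noCRS and 2912 to 4334 CPM in CRS. Slc17a7, Tbr1 and Neurod2 of that list were at 0 in noCRS replicates 2 and 3. Glial transcripts were abundant in both groups. The sum of 10 astrocyte markers was 12340 to 16184 CPM in noCRS and 7386 to 14968 CPM in CRS. That of 10 oligodendrocyte markers was 33944 to 39570 and 28253 to 55783 CPM. In each library both sums were above that of the excitatory neuron markers. The markers therefore did not bear out projection neurons as the only source of the RNA. CRS replicate 2 stood apart on the first principal component of log2 CPM, which held 30.4% of the variance.

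The DNA just upstream of 3 of the genes is shown because they stand for the 3 outcomes described below: Klf4 was higher in CRS, Klf15 was lower in each CRS library, and Klf2 had overlapping groups. Each stretch ends before the RefSeq transcription start and before the first exon of the count table, runs 5′ to 3′ on the gene's own strand, and comes from RefSeq's GRCm38.p6 promoters. The Klf4 stretch is chr4:55532476-55532725 (minus strand), that of Klf15 is chr6:90462326-90462575 (plus strand) and that of Klf2 is chr8:72318812-72319032 (plus strand). Capitals mark the cAMP response element (CRE) half-site TGACG, the E-box CACGTG, the AP-1 element TGANTCA, the steroid receptor half-site AGAACA and the MEF2 and CArG elements, each searched on both strands.
Klf4: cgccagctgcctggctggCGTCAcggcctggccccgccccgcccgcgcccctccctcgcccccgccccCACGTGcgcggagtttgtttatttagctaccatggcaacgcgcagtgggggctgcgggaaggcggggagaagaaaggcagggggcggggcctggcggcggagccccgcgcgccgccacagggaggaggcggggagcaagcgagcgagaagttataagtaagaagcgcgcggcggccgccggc
Klf15: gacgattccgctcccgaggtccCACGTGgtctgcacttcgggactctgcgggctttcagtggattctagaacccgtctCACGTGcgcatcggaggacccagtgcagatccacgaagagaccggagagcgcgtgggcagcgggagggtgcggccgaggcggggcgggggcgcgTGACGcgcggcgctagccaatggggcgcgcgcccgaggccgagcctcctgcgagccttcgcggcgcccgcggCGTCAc
Klf2: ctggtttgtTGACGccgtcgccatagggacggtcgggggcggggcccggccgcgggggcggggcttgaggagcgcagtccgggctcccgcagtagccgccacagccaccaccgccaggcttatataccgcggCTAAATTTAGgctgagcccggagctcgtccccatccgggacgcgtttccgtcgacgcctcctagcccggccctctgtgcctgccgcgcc

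Promoters of 7 of the 8 members were matched by symbol, that of Klf10 was not, and all shares below are over 32851 RefSeq windows from 250 bases before to 50 after a start. The MEF2 element of Klf2 lay at -118 to -109 from the start, and 1 of the 7 member windows and 3.19% of all windows held one. A CRE half-site was found in 5 of 7 member windows (Klf2, Klf4, Klf9, Klf13 and Klf15) and in 20.8% of all. The E-box was found in 3 of 7 (Klf4, Klf6 and Klf15) and in 7.15% of all. Klf15 held 3 E-boxes, and the one nearest the start lies at -3 to 2, beyond the printed stretch, where it overlaps a CRE half-site. The GC box GGGCGG was found in 6 of 7 (35.7% of all) and the CACCC box, CACCC, in 5 of 7 (57.5% of all). These boxes are not capitalised above. AP-1 elements were found in 1 of 7, that of Klf9 (7.81% of all), where it overlaps a CACCC box. The full CRE TGACGTCA, which contains the half-site, the receptor half-site and the CArG box were each found in 0 of 7, against 1.79%, 19% and 1.63% of all windows. The windows of Klf4, Klf15 and Klf2 held 74.3%, 73.3% and 69.3% G and C, where the median of all windows was 52.7%. A match of letters is a description of the window and not a binding site.

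Among the 8 members, 1 rose in CRS and 0 fell. With edgeR's quasi-likelihood fit, p-values adjusted by Benjamini-Hochberg over 17833 genes and a threshold of 0.05, 2.3% of all tested genes were called, 2.07% as higher and 0.23% as lower. The groups did not overlap for 5 members, 4 of them higher in CRS (Klf4, Klf6, Klf10 and Klf13) and 1 lower (Klf15), where 10.1% of all tested genes were higher and 6.74% lower without overlap. An unadjusted p below 0.05 was reached by 6 members, where 13.6% of all tested genes reached it. The median log2 fold change was 0.69 over the 8 members and -0.02 over all tested genes. DESeq2 called 5 of the 8 (Klf4, Klf6, Klf10, Klf13 and Klf15), with 9.14% of its genes called, and limma-voom called 2 (Klf4 and Klf10), with 3.58% called.

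**Figure D1:**
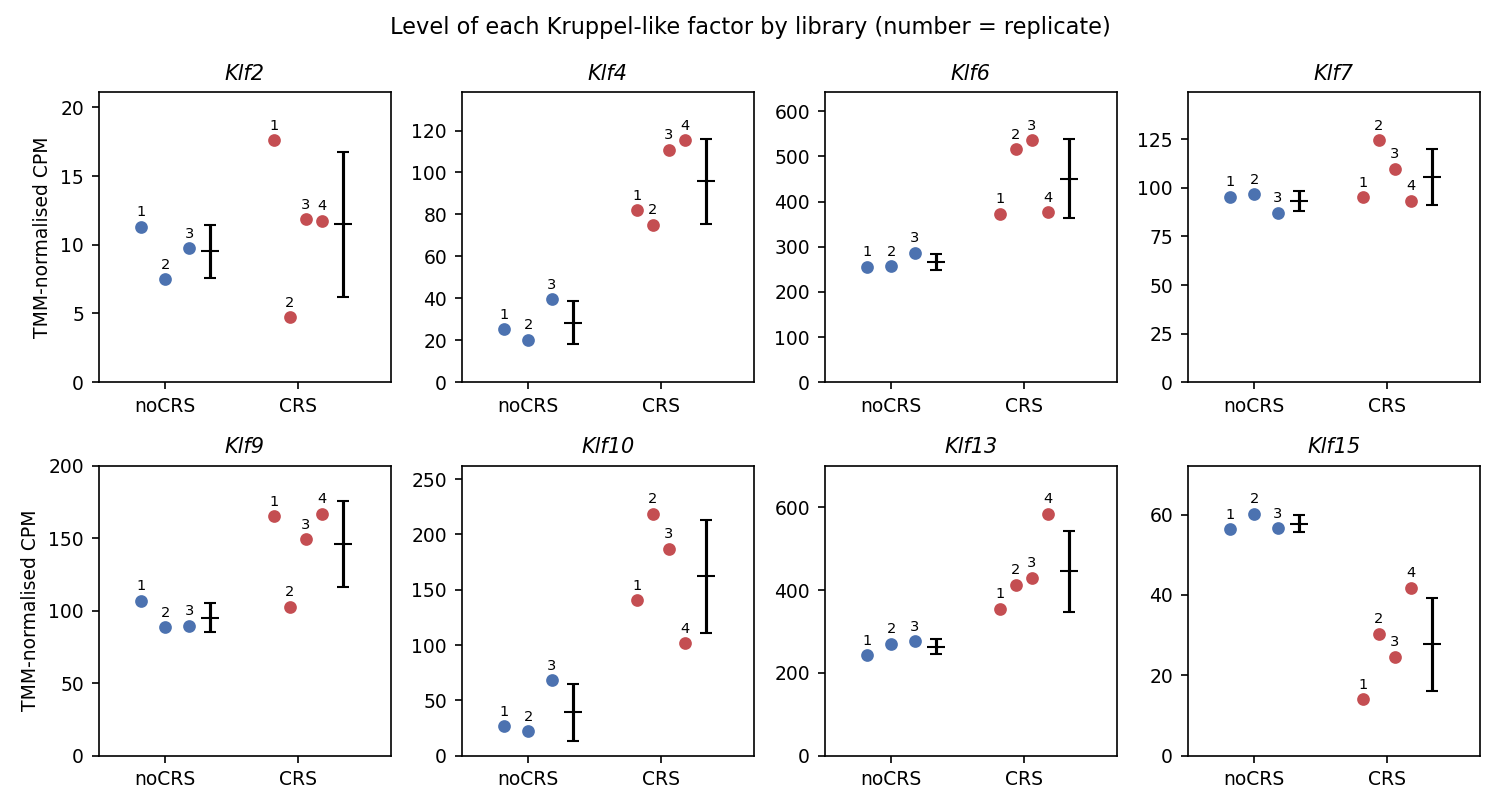
TMM-normalised CPM (linear axes from 0) of the 8 genes in each library, with the replicate number above each point and the group mean ± SD beside it (n = 3 noCRS, n = 4 CRS). The groups do not overlap for Klf4, Klf6, Klf10, Klf13 and Klf15.

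Klf4 and Klf10, the members of the early stimulation response, showed the largest differences. Klf4, also known as a pluripotency factor, lies on chromosome 4 (55527143 to 55532466, minus strand, GRCm38). Its level was 25.3, 20.2 and 39.6 CPM in noCRS replicates 1 to 3 and 81.9, 75.1, 111 and 115 CPM in CRS replicates 1 to 4. Every CRS library was above every noCRS library, and the lowest CRS value was that of replicate 2. The group means of 28.4 ± 10.1 CPM (SD, n = 3) and 95.8 ± 20.2 CPM (SD, n = 4) gave a log2 fold change of 1.75 ± 0.30 (SE), with a 95% interval of 1.06 to 2.45 and an edgeR adjusted p of 0.026. Klf4 remained called when noCRS replicate 3 (edgeR adjusted p = 0.0327) or CRS replicate 2 (0.0335) was left out, and Klf4 missed the threshold when any of 5 libraries was dropped: noCRS replicate 1 or 2 (edgeR adjusted p = 0.106 and 0.104) or CRS replicate 1, 3 or 4 (edgeR adjusted p = 0.055, 0.0772 and 0.0723). In bulk RNA fewer cells of a type and less RNA per cell cannot be told apart.

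Klf10, first described as a gene induced early by transforming growth factor beta, lies on chromosome 15 (38291463 to 38300706, minus strand). It measured 26.7, 22.1 and 68.5 CPM in the noCRS libraries and 140.5, 219, 187 and 102 CPM in the CRS libraries. The groups did not overlap, and noCRS replicate 3 lay between the other noCRS libraries and the CRS libraries. The means of 39.1 ± 25.6 and 162 ± 51.4 CPM gave a log2 fold change of 2.05 ± 0.45 (SE), with a 95% interval of 1.01 to 3.09, short of the threshold (edgeR adjusted p = 0.0615). Leaving out noCRS replicate 3 gave a noCRS mean of 24.4 CPM, and then the log2 fold change was 2.73 and the call was made (edgeR adjusted p = 0.0296). It was also made by DESeq2 (adjusted p = 0.000333) and by limma-voom (adjusted p = 0.0366).

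The 2 genes differed in their order among the CRS libraries. Klf10 was highest in CRS replicate 2 and lowest in replicate 4, while Klf4 was highest in replicate 4 and lowest in replicate 2. Fos, the early gene most used as a marker of neuronal activity, measured 12756, 5302, 12592 and 10473 CPM in CRS replicates 1 to 4, so that the library with the highest Klf10 had the lowest Fos. Over 20 immediate early genes the summed level was 7382 to 7886 CPM in noCRS and 26818, 11154, 24459 and 21590.0 CPM in CRS replicates 1 to 4. Of these 20, 5 rose (Fos, Egr3, Nr4a2, Nr4a3 and Atf3) and 0 fell, where 2.07% and 0.23% of all tested genes did. Egr3 measured 22.9, 46.8, 33.1 and 17.7 CPM in CRS replicates 1 to 4, the library order of Klf10. Among the CRS libraries Nr4a2 and Nr4a3 were lowest in replicate 2, at 117 and 41.9 CPM, and Atf3 in replicate 4, at 65.9 CPM. The list's median was 1.71 on the log2 scale. Without any one of 6 libraries (each but CRS replicate 2) Fos missed the threshold (edgeR adjusted p = 0.0719 to 0.136), as did Egr3 without any one but noCRS replicate 2 (0.0617 to 0.128).

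Vascular transcripts were examined beside Klf4 because endothelial and mural cells express it. The summed level of 8 mural markers was 56.3 to 160.2 CPM in noCRS and 144 to 539 CPM in CRS, and that of 10 endothelial markers 74.4 to 239 CPM and 50.5 to 272 CPM. CRS replicate 2 had the lowest endothelial sum of all 7 libraries and a mural sum within the noCRS range. Its level of 1 mural marker, Rgs5, at 93.1 CPM, was above the 6.62 to 65.0 CPM of noCRS. Summed over all 8 mural markers, Rgs5 included, CRS replicate 2 held 144 CPM and noCRS replicates 1 to 3 held 134.6, 160.2 and 56.3 CPM. Klf4 measured 75.1 CPM in CRS replicate 2. Of the 7 tested mural markers 4 had a positive fold change, and the list's median was 0.21 on the log2 scale. Without overlap 1 of the 7 was higher in CRS, where 10.1% of all tested genes were. The part of vascular RNA in the Klf4 difference was not tested. Of these markers, 0 of 7 tested mural and 0 of 9 tested endothelial markers were called by edgeR (1 and 0 at an unadjusted p below 0.05, 1 and 0 by DESeq2, 0 and 0 by limma-voom). Of 10 excitatory neuron markers 5 rose (Neurod6, Nrgn, Sv2b, Snap25 and Syt1). Of 6 tested interneuron markers 2 rose (Gad1 and Sst), where 2.07% of all tested genes rose. The interneuron sums were 62.9 to 65.6 CPM in noCRS and 208 to 893 CPM in CRS. Both lists moved with the groups as Klf4 did. Within CRS both sums were highest in replicate 2, at 4334 and 893 CPM, where Klf4 was lowest and Klf10 highest. The part of these neuronal lists in the Klf4 and Klf10 differences was not tested.

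Klf6 and Klf7 are close relatives that promote axon growth. Klf6 (chromosome 13, 5861482 to 5870394, plus strand) measured 256, 257 and 286 CPM in noCRS and 373, 517, 536 and 376 CPM in CRS. The groups did not overlap, and the CRS libraries fell into a higher pair, replicates 2 and 3, and a lower pair, replicates 1 and 4. The means were 266 ± 17.4 and 450.3 ± 87.8 CPM, a log2 fold change of 0.76 ± 0.18 (SE) that was short of the threshold (edgeR adjusted p = 0.0829) and was called by DESeq2 (adjusted p = 0.00296).

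Klf7 (chromosome 1, 64029447 to 64122282, minus strand) measured 95.5, 96.6 and 87.2 CPM in noCRS and 95.1, 124, 109.9 and 93.4 CPM in CRS. The groups overlapped, since CRS replicates 1 and 4 lay within the noCRS range. The log2 fold change was 0.18 ± 0.17 (SE; edgeR adjusted p = 0.794), and its 95% interval of -0.22 to 0.58 leaves out changes as large as that fitted for Klf6. Within a library the ratio of Klf6 to Klf7 does not depend on the scaling. On the log2 scale of CPM per kilobase of gene length (RPKM) that ratio was 2.31, 2.30 and 2.60 in noCRS. In CRS it was 2.86, 2.94, 3.17 and 2.90, with no overlap. Klf6 by itself did not overlap either, and the share of other gene pairs that do so was not computed. Of 20 genes known as targets of these factors 14 were tested. Gap43, a growth cone protein, was the 1 that rose, where 2.07% of all tested genes rose. It went from 56.8 ± 14.4 to 482 ± 82.6 CPM (edgeR adjusted p = 0.00129). The target list's median was -0.52 on the log2 scale, and 0 of its genes fell, where 0.23% of all tested genes did. Without overlap 2 of the 14 were higher in CRS and 2 were lower, where 10.1% and 6.74% of all tested genes were. An unadjusted edgeR p below 0.05 was reached by 3 (13.6% of all), and DESeq2 called 3 (9.14% of all) and limma-voom 2 (3.58% of all). The excitatory neuron marker sum was 133 to 270.4 CPM in noCRS and 2912 to 4334 CPM in CRS. The part of neuronal RNA or of these factors in the Gap43 difference was not tested.

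Klf9, Klf13 and Klf15 are known to respond to glucocorticoids, and edgeR called none of the 3. Klf9, also induced by thyroid hormone, lies on chromosome 19 (23141226 to 23168134, plus strand). It measured 107, 88.7 and 89.7 CPM in noCRS and 165, 103, 149 and 167 CPM in CRS. CRS replicates 1, 3 and 4 were above the noCRS range and replicate 2 was within it. The log2 fold change was 0.62 ± 0.21 (SE; edgeR adjusted p = 0.211), and 0.74 without CRS replicate 2 (edgeR adjusted p = 0.0726).

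Klf13, the closest relative of Klf9 and known to recruit Sin3 corepressors, lies on chromosome 7 (63886351 to 63938915, minus strand). Its level was 242, 270.2 and 277 CPM in noCRS and 355, 413, 429.8 and 584 CPM in CRS. The groups did not overlap, and CRS replicate 4 was the highest. The means were 263 ± 18.5 and 445 ± 97.9 CPM, with a log2 fold change of 0.76 ± 0.19 (SE; edgeR adjusted p = 0.0953; DESeq2 adjusted p = 0.00293). The log2 RPKM ratio of Klf13 to Klf9 overlapped between the groups, at 0.53 to 0.98 in noCRS and 0.46 to 1.36 in CRS.

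Klf15, known for the control of amino acid and lipid metabolism and as a glucocorticoid target in glia and muscle, lies on chromosome 6 (90462576 to 90475238, plus strand). It was the 1 member with a negative fold change. Its level was 56.4, 60.2 and 56.6 CPM in noCRS and 14.1, 30.4, 24.6 and 41.8 CPM in CRS. The 3 noCRS values lay close together, and the CRS values were all lower and spread widely, with replicate 1 the lowest and replicate 4 the highest. The means of 57.7 ± 2.12 and 27.7 ± 11.6 CPM gave a log2 fold change of -1.06 ± 0.36 (SE), with a 95% interval of -1.87 to -0.25, short of the threshold by edgeR (adjusted p = 0.207) and called by DESeq2 (adjusted p = 0.047).

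Glial markers were read beside Klf15. The astrocyte sum was 16184, 13059 and 12340 CPM in noCRS and 8857, 7749.6, 7386 and 14968 CPM in CRS replicates 1 to 4. CRS replicate 4 had the highest Klf15 and the highest astrocyte sum of the CRS libraries, while replicate 1 had the lowest Klf15 and the next highest sum. Of 10 astrocyte markers 0 were called by edgeR, where it called 2.3% of all tested genes. An unadjusted edgeR p below 0.05 was reached by 3 of the 10 (13.6% of all). DESeq2 called 2 (9.14% of all) and limma-voom 0 (3.58% of all). Only 1 of the 10 had a positive fold change. Their median was -0.51 on the log2 scale, where that of all tested genes was -0.02. Without overlap 2 were lower in CRS and 1 was higher, where 6.74% and 10.1% of all tested genes were. Markers of oligodendrocyte precursors summed to 4649 to 4969 CPM in noCRS and 2563 to 2900.0 CPM in CRS. Of these 10 markers 6 fell (Cspg4, C1ql1, Gpr17, Cspg5, Sox10 and Ptprz1), where 0.23% of all tested genes fell. The part of either in the lower Klf15 level was not tested.

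Within each library the log2 RPKM ratio of Klf9 to Klf15 was 0.13, -0.23 and -0.12 in noCRS and 2.76, 0.97, 1.81 and 1.21 in CRS. That of Klf13 to Klf15 was 0.67 to 0.86 in noCRS and 2.33 to 3.22 in CRS. Neither overlapped between the groups, and both pairs were formed after the values were seen. Klf13 and Klf15 by themselves did not overlap either, and the share of other gene pairs that do so was not computed. Of 15 other genes known to respond to glucocorticoids, edgeR called 0, where it called 2.3% of all tested genes. An unadjusted edgeR p below 0.05 was reached by 2 of the 15 (13.6% of all). DESeq2 called 2 (9.14% of all) and limma-voom 1 (3.58% of all). The 2 of smallest p, the cell cycle inhibitor Cdkn1a and the phosphatase Dusp1, measured 24.0 ± 6.11 and 73.9 ± 25.8 CPM, and 1704 ± 487 and 3925 ± 985 CPM (edgeR adjusted p = 0.0528 and 0.0576). Both were called by edgeR with a filter of 1 CPM in 3 libraries (adjusted p = 0.0482 and 0.0474), and Dusp1 also when CRS replicate 2 was left out (edgeR adjusted p = 0.0368). Dusp1 is also in the immediate early list and Cdkn1a in the list of known targets of these factors. Their median was -0.04 on the log2 scale.

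Klf2, which maintains quiescent endothelium and lies on chromosome 8 (72319033 to 72321656, plus strand), was the least abundant member. It measured 11.3, 7.48 and 9.77 CPM in noCRS and 17.6, 4.71, 11.9 and 11.8 CPM in CRS. The CRS libraries held both the highest value, in replicate 1, and the lowest, in replicate 2, so the groups overlapped. The log2 fold change was 0.27 ± 0.58 (SE; edgeR adjusted p = 0.92) with a 95% interval of -1.06 to 1.60, and it was -0.01 without CRS replicate 1. The endothelial marker sum was 239, 74.4 and 82.8 CPM in noCRS and 272, 50.5, 161 and 239 CPM in CRS, highest and lowest in the same libraries as Klf2. The endothelial markers Tek, Emcn and Esam were at 0 counts in CRS replicate 2 alone, and Cdh5 was at 0 in 5 of the 7 libraries, replicate 2 among them. The part of vascular RNA in the Klf2 level was not tested. The log2 RPKM ratio of Klf4 to Klf2 was 0.44, 0.71 and 1.30 in noCRS and 1.49, 3.27, 2.50 and 2.57 in CRS, without overlap. Klf4 by itself did not overlap either, and the share of other gene pairs that do so was not computed.

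**Figure D2:**
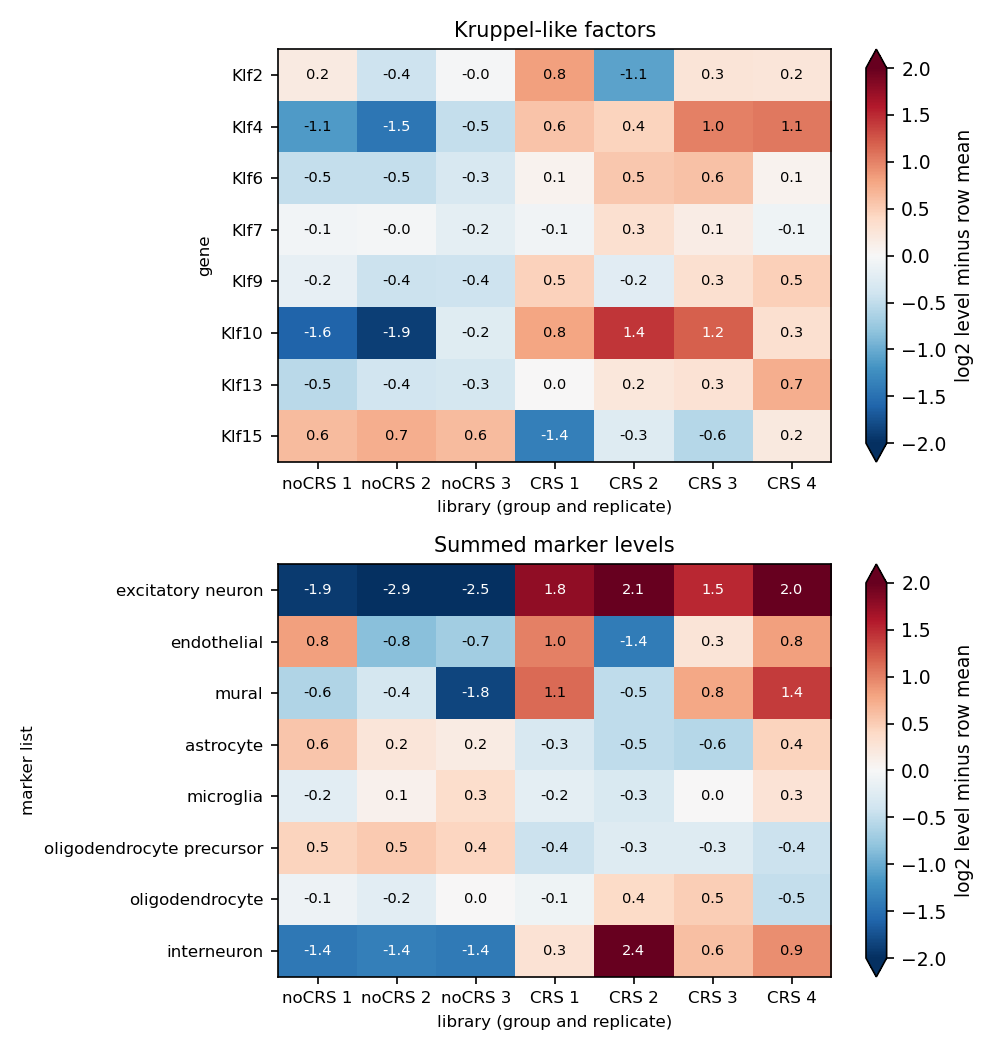
Log2 CPM of each gene (top) and log2 of the summed CPM of each marker list plus 1 (bottom), each minus its mean over the 7 libraries (columns, by group and replicate); red is above and blue below the row mean, and the colours end at 2. Klf2 is lowest in CRS replicate 2, as is the endothelial sum, while Klf10 is highest there.

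Of 17 transcription factors and receptors that act upstream of these genes, 1 rose and 0 fell. Over all tested genes 2.07% rose and 0.23% fell. Without overlap 1 of the 17 was higher in CRS and 3 were lower, where 10.1% and 6.74% of all tested genes were. The list's median was 0.20 on the log2 scale. The riser was Mef2c, a factor of excitatory cortical neurons that also binds the Klf2 and Klf4 promoters in other cells. Mef2c measured 18.9, 17.8 and 23.2 CPM in noCRS and 308, 77.4, 167 and 268 CPM in CRS (log2 fold change 3.36 ± 0.47 SE, edgeR adjusted p = 0.0117). Each CRS library was above each noCRS library for Mef2c, and replicate 2 was the lowest of the CRS libraries. Dropping noCRS replicate 1 or 2 ended the Mef2c call (edgeR adjusted p = 0.0628 and 0.0689). Between the same groups the excitatory neuron marker sum went from 133 to 270.4 CPM in noCRS to 2912 to 4334 CPM in CRS. The part of neuronal RNA in the Mef2c difference was not tested. Of 12 cofactors and ubiquitin ligases that act on these proteins, edgeR called 0, where it called 2.3% of all tested genes. An unadjusted edgeR p below 0.05 was reached by 2 of the 12 (13.6% of all). DESeq2 called 1 (9.14% of all) and limma-voom 1 (3.58% of all), and the median was -0.05 on the log2 scale. The 2 of smallest p were Fbxw7, a ubiquitin ligase subunit, at 14.7 ± 14.5 and 89.0 ± 30.0 CPM (edgeR adjusted p = 0.114), and the deacetylase Hdac2, at 69.1 ± 14.8 and 113 ± 25.9 CPM (edgeR adjusted p = 0.218). Without noCRS replicate 1 Fbxw7 was called (log2 fold change 3.80 against 2.59, edgeR adjusted p = 0.036).

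Counted per length, the order of the 8 genes changed between the groups mainly through Klf15, Klf10 and Klf4. In noCRS Klf6 led at 60.7 ± 3.96 RPKM, followed by Klf13 (34.9 ± 2.45), Klf15 (20.7 ± 0.76), Klf9 (19.7 ± 2.11), Klf7 (11.5 ± 0.64), Klf10 (9.35 ± 6.11), Klf4 (9.31 ± 3.31) and Klf2 (5.15 ± 1.04 RPKM). The neighbours Klf15 and Klf9, Klf7 and Klf10, and Klf10 and Klf4 had overlapping ranges there. In CRS Klf6 led again, at 103 ± 20 RPKM, followed by Klf13 (59.1 ± 13.0), Klf10 (38.8 ± 12.3), Klf4 (31.4 ± 6.64), Klf9 (30.3 ± 6.22), Klf7 (13.0 ± 1.79), Klf15 (9.93 ± 4.14) and Klf2 (6.22 ± 2.86 RPKM). All neighbours in that order overlapped except Klf6 with Klf13 and Klf9 with Klf7. The 8 together summed to 162 to 186 RPKM in noCRS and 253 to 319.9 RPKM in CRS. Klf15 made up 10.9% to 13.3% of that sum in noCRS and 2.0% to 5.12% in CRS, while the share of Klf6 overlapped, at 35.0% to 36.1% and 29.2% to 39.3%.

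**Figure D3:**
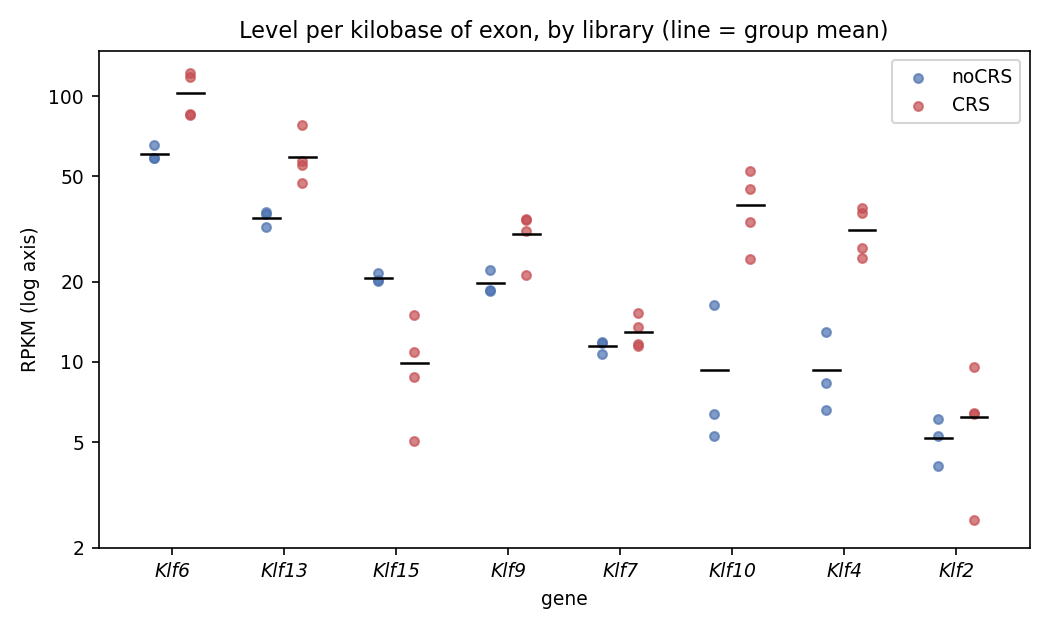
RPKM (log axis) of each gene in each library, with a line at the group mean, ordered by the noCRS mean (n = 3 noCRS, n = 4 CRS). Klf6 and Klf13 lead in both groups, and Klf15 stands behind Klf13 in noCRS and behind Klf7 in CRS.

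The other 9 Klf genes and the 9 Sp genes were compared as the nearest relatives. Of the other Klf genes 5 passed the filter, and edgeR called 0 of them, where it called 2.3% of all tested genes. An unadjusted edgeR p below 0.05 was reached by 2 of the 5 (13.6% of all). DESeq2 called 2 (9.14% of all) and limma-voom 0 (3.58% of all), and the median was 0.56 on the log2 scale. The most abundant were Klf3 (86.6 ± 19.0 and 71.0 ± 12.5 CPM in noCRS and CRS), Klf12 (61.2 ± 9.64 and 48.2 ± 24.9 CPM) and Klf11 (50.8 ± 20.4 and 74.7 ± 30.6 CPM), all with overlapping groups. Klf3 and Klf12 recruit CtBP corepressors, and Klf11 is the closest relative of Klf10. The log2 RPKM ratio of Klf10 to Klf11 was -1.54 to 0.30 in noCRS and 0.80 to 1.81 in CRS, without overlap. Klf10 by itself did not overlap either, and the share of other gene pairs that do so was not computed.

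Klf5 and Klf16, named after their values were seen, were the other Klf genes whose groups did not overlap. Both were higher in CRS, where 10.1% of all tested genes were higher without overlap. Klf5 measured 1.78, 0.03 and 0.58 CPM in noCRS and 14.8, 3.90, 10.2 and 13.1 CPM in CRS (edgeR adjusted p = 0.212, DESeq2 adjusted p = 0.00834). Klf16 measured 4.78, 2.67 and 2.77 CPM in noCRS and 11.1, 9.73, 10.2 and 12.3 CPM in CRS (edgeR adjusted p = 0.242, DESeq2 adjusted p = 0.000551). Klf14 and Klf17 had 0 counts in all 7 libraries, where 3 counts in a library would be 0.0724 to 0.0990 CPM. Klf1 was seen in noCRS replicate 1 alone, at 1.38 CPM, and Klf8, also untested, in 3 libraries, at 7.13 CPM in CRS replicate 1 and under 1 CPM in the others. Of the Sp genes 8 passed the filter and edgeR called 0, where it called 2.3% of all tested genes. An unadjusted edgeR p below 0.05 was reached by 0 of the 8 (13.6% of all). DESeq2 called 0 (9.14% of all) and limma-voom 0 (3.58% of all), and the median was 0.36 on the log2 scale. Sp2 and Sp7 were lower in CRS without overlap (edgeR adjusted p = 0.715 and 0.579), as were 6.74% of all tested genes. Sp7 had 0 counts in CRS replicate 1. Sp3 measured 21.5 ± 12.4 and 37.7 ± 8.67 CPM, and Sp1, the founding member, 8.74 ± 6.97 and 14.5 ± 4.34 CPM.

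**Figure D4:**
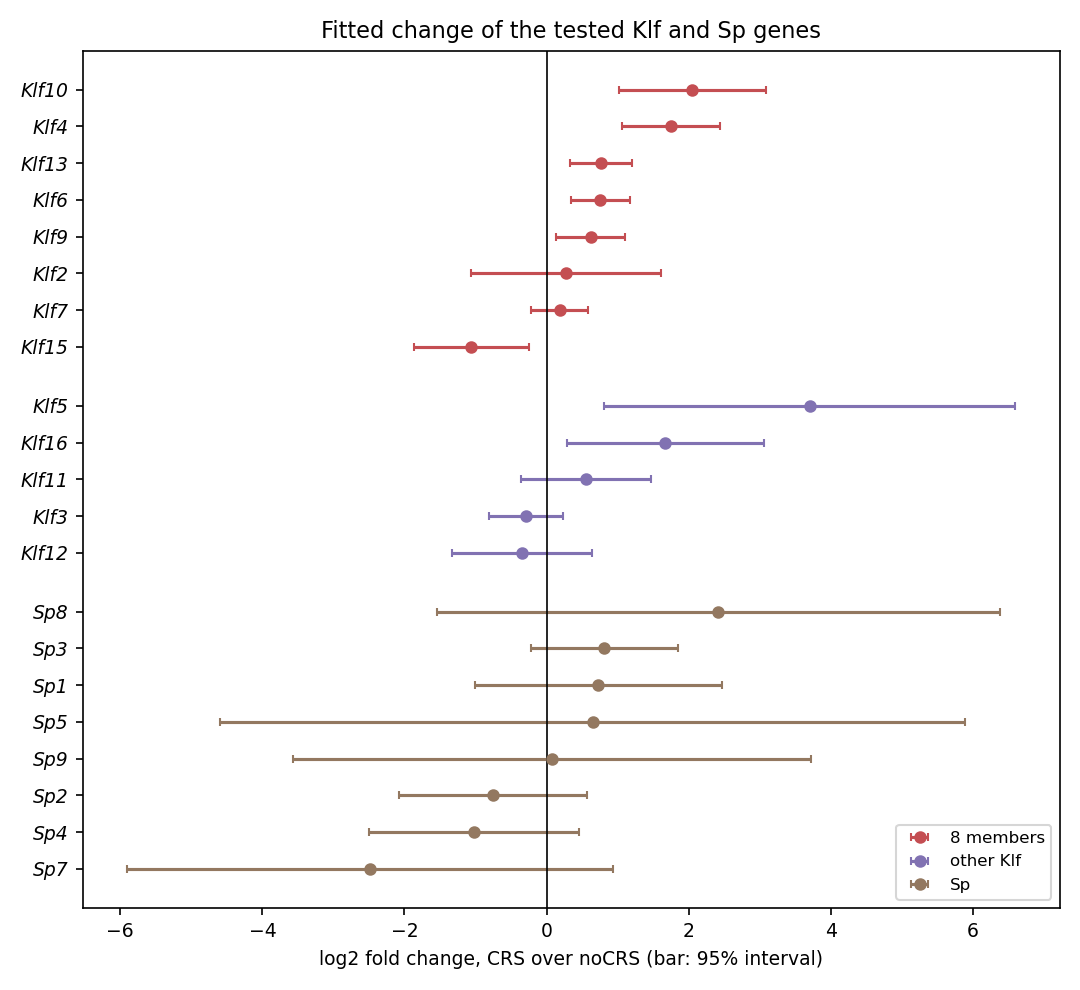
Fitted log2 fold change, CRS over noCRS, of the 8 members and of the other tested Klf and Sp genes, with 95% intervals from the edgeR fit (n = 3 noCRS, n = 4 CRS). Intervals of the members Klf4, Klf6, Klf9, Klf10 and Klf13 and of the other genes Klf5 and Klf16 lie above 0 and that of Klf15 below 0, before adjustment for the number of genes, and Sp5, Sp7, Sp8 and Sp9 have the widest intervals of the Sp genes.

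Genes with the most similar pattern over the 7 libraries were found by the root mean square difference of log2 CPM, each gene centred on its own mean, among 10835 genes. For Klf4 these were S100a10 (0.22) and Rab3c, a vesicle GTPase (0.23), where the spread of Klf4 itself was 0.94 on that scale. For Klf10 they were the chaperone Hspa4l (0.25) and the ribosome assembly factor Nop53 (0.29), with a spread of 1.22 for Klf10. Hspa4l shared the raised value of Klf10 in noCRS replicate 3 and, like Klf10, was called without that library (log2 fold change 2.38, edgeR adjusted p = 0.0347). Hspa4l was picked for its likeness to Klf10, so neither is a separate result. For Klf15 they were the phosphatase Alpl (0.24) and Ccdc90b (0.24), with a spread of 0.72. For Klf6 they were Vps26a (0.083) and Srp54c (0.086), for Klf13 Tspyl1 (0.117) and Klhl24 (0.121), and for Klf9 Akap11 (0.089) and Ppp4r3b (0.119). For Klf2 they were Twf2 (0.149) and Slitrk5 (0.18), and for Klf7 Bcap31 (0.072) and Smim14 (0.076). Of these 16 genes Rab3c and Nop53 rose (edgeR adjusted p = 0.0312 and 0.0195), where 2.07% of all tested genes rose. The 16 were picked for likeness to the members, so their calls are not separate results. Rab3c missed the threshold when any library but noCRS replicate 3 or CRS replicate 2 was left out (up to 0.138). Nop53 missed it when noCRS replicate 1, noCRS replicate 2, CRS replicate 1 or CRS replicate 3 was left out (up to 0.0987).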

How the data were processed

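The authors deposited raw counts per gene, as whole numbers, with exon coordinates and gene lengths. The submitters' processing notes name the build GRCm38 and, without versions, DESeq2, featureCounts, HISAT, HISAT2 and FastQC. The column names end as another aligner's default output does, so the aligner was not settled. Libraries were made with a TruePrep kit, per the labels' protocols; whether strand was used in counting is not stated. An antisense gene covers 0.0492% of the exon length of Klf7, and no other gene's exons overlap the other 7 members. All 8 members have the same ends in GENCODE M21.

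The 4 CRS and 3 noCRS libraries were compared by the quasi-likelihood test of edgeR 4.0.16 (R 4.3.3), after TMM scaling and its default expression filter, with no covariate. Benjamini-Hochberg adjustment ran over 17833 genes at a threshold of 0.05. The script was checked on simulated data. The standard error is the fold change over the square root of F. CPM values use TMM library sizes, RPKM values divide them by gene length, and log2 CPM uses a prior count of 2. The common biological coefficient of variation was 0.919. The floor of 3 counts covers counting error only, because PCR copies are not separate molecules.

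Alternatives were DESeq2 1.42.0, limma-voom (limma 3.58.1), RLE and unscaled library sizes, 2 other filters, each library left out and the replicate number as a block. Same-numbered libraries did not deviate together (correlations 0.0153, -0.00319 and 0.0228). Each pair of libraries of a group differed by more than sampling noise. The members, lists and tests were chosen with earlier results of these data known. Lists are described by counts and medians, with no test of the list. The text names the members, the most abundant relatives, the called genes of each list or failing these the 2 of smallest p, and the 2 genes nearest to each member in pattern with a mean of at least 5 CPM, leaving out predicted models. Other genes were named after their values were seen.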

Additional observations from a re-analysis of the deposited data

How the results depend on the processing

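Of the 8 members, 7 kept the sign of their fold change under all 14 alternatives, and that of Klf2 was reversed without CRS replicate 1 (-0.0112; 0.513 without CRS replicate 2). Over the alternatives the log2 fold change ran from 1.56 to 2.08 for Klf4, 1.77 to 2.73 for Klf10, 0.59 to 0.84 for Klf6, 0.58 to 0.85 for Klf13, 0.47 to 0.74 for Klf9, 0.02 to 0.23 for Klf7 and -1.39 to -0.84 for Klf15. Unscaled library totals moved the median of all genes by -0.16. The count of members called was 5 with DESeq2, 2 with limma-voom and 0 to 2 with a library left out. Over all genes the count of 410 became 1631 with DESeq2 and 639 with limma-voom, and was 142 to 352 with a library left out. Of other Klf and Sp genes DESeq2 called 2. Of the upstream, cofactor and target lists together edgeR called 7, DESeq2 19, limma-voom 13, the filter of 1 CPM in 3 libraries 11 and the fits with a library left out 5 to 12 (12 without CRS replicate 2).

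With the replicate number as a block, which only shares a number between libraries, 12 genes were called over all genes, 0 members (Klf4 adjusted p = 0.109) and 1 gene of the upstream, cofactor and target lists. Among pattern neighbours far from the threshold, the sign was reversed for Slitrk5 with DESeq2 (-0.014), RLE factors (-0.0200), library totals (-0.125), the replicate block (-0.0685) and with libraries left out (-0.240 to 0.249), for Twf2 with libraries left out (-0.0583 to 0.442) and for Smim14 with library totals (-0.0176). The cause of these differences was not tested.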
